A study of Mus musculus with 6 samples.

Results

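In lung cells of mouse pups taken at postnatal day 5, 10 genes of endothelial fatty acid uptake were compared between endothelial cells with an induced deletion of Smad4 and floxed controls. The genes are the surface fatty acid receptor Cd36, the lipolysis genes Gpihbp1 and Lpl, the intracellular carriers Fabp4 and Fabp5, the fatty acid transport proteins Slc27a1, Slc27a3 and Slc27a4, and the transcription factors Meox2 and Tcf15. They were taken by symbol from the deposited counts, and 10 of 10 were found among 24951 genes. Mutant pups were Smad4 f/f;Cdh5-CreERT2, that is, with both Smad4 alleles floxed and a Cre made in endothelial cells and activated by tamoxifen. Control pups were Smad4 f/f without Cre, although a label calls them wildtype, so no group had Cre together with intact Smad4. All pups of both groups therefore carried the floxed alleles. The dose and day of tamoxifen are not given in the labels, and the protocol also uses the names HHTf/f and HHTiECKO without explaining them. CD31+ cells were taken with antibody-coated beads, and polyadenylated RNA was sequenced from 3 mutant and 3 control libraries, which the labels call independent biological samples. Every count column, mutant and control, has lit14 in its name, which may stand for 1 litter but is not explained, so p-values measure the spread between these libraries.

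Capillary endothelium takes up fatty acids by linked steps. GPIHBP1 anchors lipoprotein lipase, the product of Lpl, on the luminal face of capillaries, where the enzyme releases fatty acids from the triglycerides of circulating lipoproteins. CD36 binds long-chain fatty acids at the cell surface, FATP proteins of the Slc27a family couple their import to acyl-CoA formation, and FABP proteins carry them inside the cell. In mouse heart endothelium, MEOX2 and TCF15 form a heterodimer that promotes expression of fatty acid uptake genes. In the lung, fatty acids are also building blocks of surfactant lipids made by alveolar epithelial cells.

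The lipase anchor and the fatty acid receptor moved in opposite directions. Cd36 was 1.92-fold lower in mutant libraries and Lpl 1.47-fold lower, while Gpihbp1 was 1.45-fold higher and Tcf15 2.00-fold higher. The 3 transport proteins, both FABP genes and Meox2 did not pass the test. Calls are those of edgeR's quasi-likelihood test over all 14934 tested genes, with a Benjamini-Hochberg adjusted p below 0.05. All 10 genes passed the filter on low counts, and their raw counts ran from 91 to 16222 per library. Of the 10, 4 were called, where 3.27% of all tested genes were called. By direction, 2 were higher against 1.93% of all tested genes, and 2 were lower against 1.34%. The CPM ranges of mutant and control libraries were apart in 5 of the 10, against 20.6% of all tested genes. The 10 genes were chosen with earlier results of these data known, so these shares describe the list only. Their median log2 fold change was 0.04, and that of all tested genes was 0.00, while the median size of the change without its sign was 0.31 for the list and 0.14 for all tested genes.

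**Figure D1:**
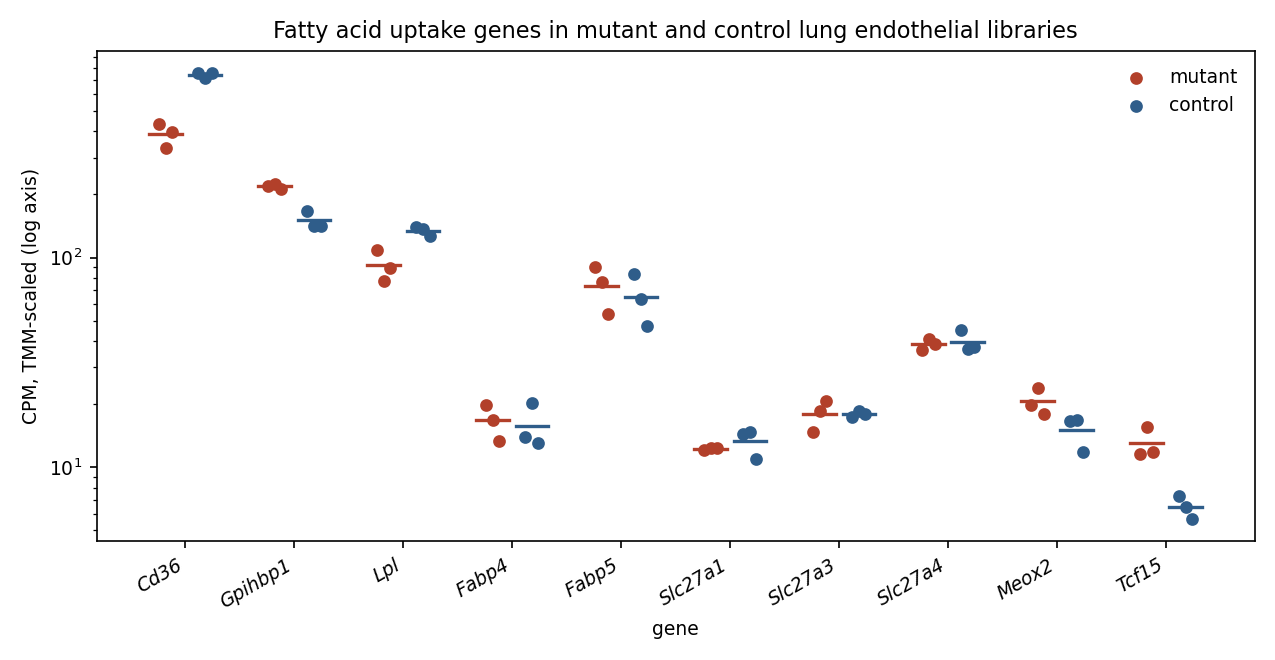
Library-scaled counts (CPM) of each gene in each library on a log axis, with mutant libraries (red) left of control libraries (blue) for each gene, points for libraries and horizontal lines for group means (n = 3 each). The groups are apart for Cd36, Gpihbp1, Lpl, Meox2 and Tcf15 and overlap for the other genes.

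Reads assigned to genes came to 16041786 to 20172318 in mutant and 14093564 to 21113926 in control libraries, which puts 3 counts at 0.140 to 0.214 CPM. CPM are counts scaled by library size. Smad4, the deleted gene, had levels of 88.8, 72.9 and 94.2 CPM in mutant replicates 1, 2 and 3, against 188, 177 and 181 CPM in control replicates 1, 2 and 3, with a log2 fold change of -1.09 (SE 0.10, edgeR adjusted p = 0.000604). Which exons are floxed is not in the labels, so reads of the remaining transcript may be counted. All 15 pan-endothelial markers were detected, with a summed level of 12563 to 12808 CPM in mutant and 12164 to 13334 CPM in control libraries. Of these 15, 2 were called in opposite directions, where 3.27% of all tested genes were called. They were Tek, lower (log2 fold change -0.50, edgeR adjusted p = 0.0128), and Robo4, higher (0.43, adjusted p = 0.0263). Both were named after their values were seen. Markers of other cells were present as well: alveolar epithelial markers summed to 3503 to 4037 CPM in mutant and 2585 to 5238 CPM in control libraries.

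The promoter of Cd36 is shown because Cd36 had the lowest adjusted p of the 10 genes, and that of Slc27a4 because it holds the same short motif in a gene that was not called. Both are 300-base windows around a transcription start, from RefSeq on GRCm38.p6, and 5 of the 10 genes had a window there: Cd36, Slc27a1, Slc27a3, Slc27a4 and Meox2. The Cd36 window is chr5:17835847-17836146 on the minus strand, and the gene as annotated in GENCODE M21 extends further upstream, so it covers 1 of the possible starts. The Slc27a4 window is chr2:29802384-29802683 on the plus strand. Capitals mark CAGAC, a SMAD box, or its complement GTCTG.
Cd36: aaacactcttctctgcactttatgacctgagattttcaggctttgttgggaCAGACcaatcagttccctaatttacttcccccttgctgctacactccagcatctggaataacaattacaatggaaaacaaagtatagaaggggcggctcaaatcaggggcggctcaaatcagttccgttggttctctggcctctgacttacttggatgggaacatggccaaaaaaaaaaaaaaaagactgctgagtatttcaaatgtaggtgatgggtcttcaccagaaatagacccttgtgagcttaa
Slc27a4: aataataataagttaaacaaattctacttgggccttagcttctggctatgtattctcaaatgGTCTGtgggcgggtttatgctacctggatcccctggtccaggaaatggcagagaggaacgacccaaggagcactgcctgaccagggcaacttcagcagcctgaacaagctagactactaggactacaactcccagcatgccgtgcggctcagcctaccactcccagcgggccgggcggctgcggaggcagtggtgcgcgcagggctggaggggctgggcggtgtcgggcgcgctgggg
The match began at position 52 in the Cd36 window and at position 63 in the Slc27a4 window, counted from 1 at the 5′ end. CAGAC was found on either strand in 4 of the 7 windows of these genes, and in 49.6% of all 32851 mouse promoter windows in the table. A direct repeat of AGGTCA with 1 base between, to which PPAR and RXR bind, was found in 0 of the 7 windows and in 0.0396% of all windows. E-boxes, CANNTG, bound by basic helix-loop-helix factors such as TCF15, were in 7 of 7 windows and in 72.3% of all. The homeobox core TAATTA was in 0 of 7 and in 5.29% of all. In base composition the Cd36 window stood at 43.0% GC and the Slc27a4 window at 58.7% GC. These matches describe letters in the windows only.

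Cd36 (ENSMUSG00000002944.15) is a minus-strand gene of chromosome 5 (GRCm38), between 17781690 and 17888801. It had 435, 332 and 399 CPM in mutant replicates 1, 2 and 3, against 757, 719.8 and 759 CPM in control replicates 1, 2 and 3. Every mutant library was below every control library, and mutant replicate 2 was the lowest of the 6. The means were 389 ± 52.2 CPM in mutant and 745 ± 22.0 CPM in control libraries (SD, n = 3 each), a log2 fold change of -0.94 (SE 0.10, edgeR adjusted p = 0.00123). Cd36 was called in all 13 alternative analyses, with log2 fold changes between -1.03 and -0.84. Cells other than endothelium also make CD36, among them macrophages and platelets. Of all tested genes, 3.27% were called by edgeR and 14% had an unadjusted p under 0.05. Of 19 macrophage and monocyte markers 0 were called by edgeR and 1 by DESeq2, with 3 at an unadjusted p under 0.05. The summed level of these markers was 1195 to 1316 CPM in mutant and 1118 to 1330 CPM in control libraries. Platelet markers summed to 81.9 to 108 CPM in mutant and 91.6 to 122 CPM in control libraries, with 0 of 11 called by edgeR or DESeq2 and 1 at an unadjusted p under 0.05. Both ranges overlapped.

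Gpihbp1 (ENSMUSG00000022579.10), the capillary anchor of lipoprotein lipase, lies on chromosome 15 from 75596628 to 75599481 on the plus strand. It had 219.8, 223 and 212 CPM in mutant replicates 1, 2 and 3, against 167, 142 and 142 CPM in control replicates 1, 2 and 3. The mutant libraries lay close together and above all controls, and control replicate 1 was the highest of its group. Means were 218 ± 5.88 CPM in mutant and 150.3 ± 14.5 CPM in control libraries (SD, n = 3 each), and the log2 fold change was 0.54 (SE 0.09, edgeR adjusted p = 0.00885). The call ended without mutant replicate 2 (adjusted p = 0.0533) and without control replicate 2 (adjusted p = 0.0503), and it held in the other 11 alternatives, with log2 fold changes of 0.50 to 0.62 over all 13.

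Lpl (ENSMUSG00000015568.16), on chromosome 8 from 68880491 to 68907448 on the plus strand, encodes the enzyme that GPIHBP1 binds. Its level was 109, 77.0 and 89.4 CPM in mutant replicates 1, 2 and 3, against 140.4, 137 and 127 CPM in control replicates 1, 2 and 3. The groups did not overlap, and the mutant libraries were spread more widely. The means were 91.8 ± 16.2 CPM in mutant and 134.7 ± 7.22 CPM in control libraries (SD, n = 3 each), with a log2 fold change of -0.55 (SE 0.12, edgeR adjusted p = 0.0376). Its call ended with 5 of the 6 libraries left out in turn: without mutant replicate 2 or 3 the adjusted p was 0.139 or 0.112, and without control replicate 1, 2 or 3 it was 0.0801, 0.147 or 0.0596. Lpl is also made by adipocytes, whose markers were near 0: all 7 together summed to 0.195 to 0.816 CPM in mutant and 0.482 to 1.07 CPM in control libraries, and Lep and Pck1 had no count in any library. Macrophages make Lpl too, and their marker sums are those given for Cd36. Cardiac and skeletal muscle markers summed to 41.2 to 54.2 CPM in mutant and 29.4 to 63.7 CPM in control libraries, with overlap. Fibroblast and lipofibroblast markers summed to 1658 to 2405 CPM in mutant and 1419 to 2127 CPM in control libraries. Of these 13, 0 were called by edgeR or DESeq2, where edgeR called 3.27% of all tested genes. At an unadjusted p under 0.05 there were 0, against 14% of all tested genes.

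**Figure D2:**
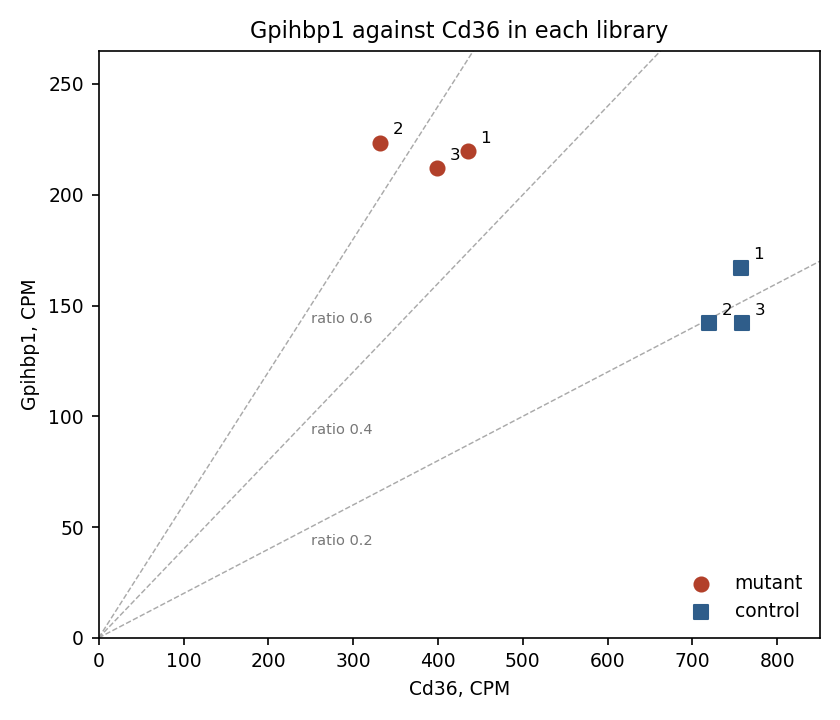
Gpihbp1 (vertical axis, CPM) against Cd36 (horizontal axis, CPM) in each library, with circles for mutant and squares for control libraries, replicate numbers beside them, and dashed lines of equal ratio. The 3 mutant libraries lie at ratios of 0.505 to 0.673 and the 3 control libraries at 0.187 to 0.221.

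Set beside each other in the same library, the anchor and the receptor were apart in their ratio of CPM. Gpihbp1 over Cd36 was 0.505, 0.673 and 0.531 in mutant replicates 1, 2 and 3, against 0.221, 0.197 and 0.187 in control replicates 1, 2 and 3. The log2 ratio averaged -0.82 ± 0.22 in mutant and -2.31 ± 0.12 in control libraries (SD, n = 3 each), a difference of 1.49, or 2.81-fold. This pair was chosen with both directions known, so the ratio is given without a test. Leaving out any 1 library gave a difference of 1.36 to 1.57. Gpihbp1 over its partner Lpl was 2.02, 2.90 and 2.37 in mutant replicates 1, 2 and 3, against 1.19, 1.04 and 1.12 in control replicates 1, 2 and 3, 2.16-fold apart on average. Lpl over Cd36 was 0.251, 0.232 and 0.224 in mutant replicates 1, 2 and 3, against 0.185, 0.190 and 0.167 in control replicates 1, 2 and 3, which is 1.30-fold apart. Of these 3 pairs, the 2 that contain Gpihbp1 were the furthest apart between groups.

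Gpihbp1 is also a known marker of general capillary cells, an endothelial subtype of the lung. The 15 markers of that subtype summed to 6918 to 7790 CPM in mutant and 9789 to 10291 CPM in control libraries, with no overlap, and Scn7a alone made up 890 CPM of it on average in mutant and 2467 CPM in control libraries. In bulk RNA, fewer cells of a type and less RNA per cell cannot be told apart. Of the 15 markers, 6 were called lower and 2 higher, where 1.34% and 1.93% of all tested genes were called lower and higher. The 2 higher ones were Gpihbp1 and Lyve1. The lower ones were Cxcl12 (log2 fold change -1.97), Sema3c (-1.66), Scn7a (-1.47), Glp1r (-0.97), Plcb1 (-0.94) and Hilpda (-0.65), against 0.54 for Gpihbp1 and 0.44 for Lyve1. All of these markers but Scn7a, Hilpda and Gpihbp1 were named after their values were seen. Aerocytes are the other capillary subtype of the lung. Their 15 markers summed to 4250 to 4508 CPM in mutant and 4133 to 4559 CPM in control libraries, with overlap. Apln alone made up 687 CPM of that sum on average in mutant and 212 CPM in control libraries. The median log2 fold change was -0.35 for the general capillary markers and -0.28 for the aerocyte markers. Of the 15, 4 were called lower, Fibin (log2 fold change -0.83), Nckap5 (-0.60), Tmcc2 (-0.52) and Tbx2 (-0.51), and 1 higher, Apln (1.70), which is also on the list of uptake regulators. The 4 lower ones were named after their values were seen. Relative to the summed general capillary markers, Cd36 differed by -0.52 and Gpihbp1 by 0.97 on the log2 scale with no overlap between groups, and Lpl by -0.14 with overlap. Gpihbp1 is itself 1 of the 15 markers. Relative to the summed pan-endothelial markers the differences were -0.95 for Cd36, 0.54 for Gpihbp1 and -0.57 for Lpl, each with no overlap. The part of cell makeup in these results was not tested.

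Tcf15 (ENSMUSG00000068079.5), a basic helix-loop-helix factor, lies on chromosome 2 from 152143561 to 152149097 on the plus strand and was the least abundant of the called genes. Its level was 11.6, 15.6 and 11.8 CPM in mutant replicates 1, 2 and 3, against 7.28, 6.48 and 5.69 CPM in control replicates 1, 2 and 3. Behind these stood 212, 249 and 242 counts in the mutant libraries, against 156, 91 and 118 counts in the control libraries. Every mutant library was above every control library, and mutant replicate 2 was the highest. The means were 13.0 ± 2.26 CPM in mutant and 6.48 ± 0.795 CPM in control libraries (SD, n = 3 each), with a log2 fold change of 1.00 (SE 0.18, edgeR adjusted p = 0.0129). The call ended without mutant replicate 2 (adjusted p = 0.076) and without control replicate 2 (adjusted p = 0.0575).

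Meox2 (ENSMUSG00000036144.6), the homeobox partner of TCF15, lies on chromosome 12 from 37108540 to 37179534 on the plus strand. Its level was 19.9, 23.9 and 18.0 CPM in mutant replicates 1, 2 and 3, against 16.7, 16.9 and 11.8 CPM in control replicates 1, 2 and 3. The groups did not overlap, but the log2 fold change of 0.45 (SE 0.17) was not called (edgeR adjusted p = 0.256), nor was it in any of the 13 alternatives. A sense-intronic transcript, Gm48617, is annotated inside the gene, and reads of the pair may not be told apart. The ratio of Tcf15 to Meox2 was 0.586, 0.654 and 0.654 in mutant replicates 1, 2 and 3, against 0.436, 0.384 and 0.482 in control replicates 1, 2 and 3. So the mutant libraries held more Tcf15 per Meox2, a log2 difference of 0.55 that was not tested. Meox1, a related homeobox gene, had 38.1, 40.7 and 41.3 CPM in mutant replicates 1, 2 and 3, against 27.8, 19.3 and 28.8 CPM in control replicates 1, 2 and 3. It was called higher, with a log2 fold change of 0.66 (SE 0.15, edgeR adjusted p = 0.0381). The call ended with sex, read from Xist and Y-linked genes, as a covariate (adjusted p = 0.0543). It also ended without mutant replicate 1, 2 or 3 (adjusted p = 0.0844, 0.184 or 0.111).

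**Figure D3:**
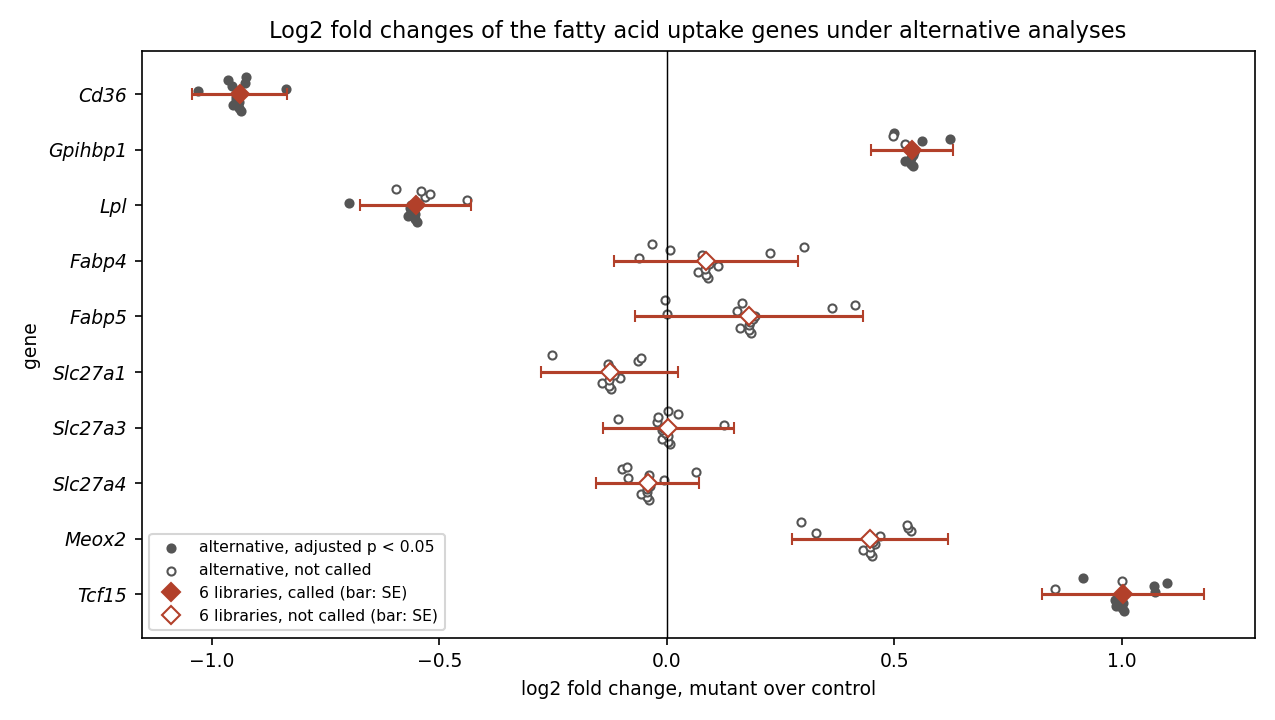
Log2 fold change, mutant over control, of each of the 10 genes, with diamonds and SE bars from all 6 libraries and small circles for the 13 alternatives, filled where called. Cd36 is filled throughout, and Fabp4, Fabp5, Slc27a1, Slc27a3, Slc27a4 and Meox2 are open throughout.

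The intracellular carriers did not pass the test. Fabp4, on chromosome 3 from 10204088 to 10208576 on the minus strand and better known from adipocytes and capillaries, had 19.9, 16.9 and 13.4 CPM in mutant replicates 1, 2 and 3, against 14.0, 20.4 and 13.1 CPM in control replicates 1, 2 and 3. Its log2 fold change was 0.09 (SE 0.20, edgeR adjusted p = 0.894). Fabp5 lies on the same chromosome from 10012548 to 10016607 on the plus strand, and had 90.2, 76.2 and 54.0 CPM in mutant replicates 1, 2 and 3, against 83.7, 63.4 and 47.2 CPM in control replicates 1, 2 and 3. Both groups spread widely in Fabp5 and overlapped, with a log2 fold change of 0.18 (SE 0.25, edgeR adjusted p = 0.803). A processed pseudogene, Fabp5l2, is annotated in GENCODE M21, so counts of Fabp5 are uncertain where reads fit both copies. With coefficients of variation of 24.8% in mutant and 28.3% in control libraries, Fabp5 was the most variable of the 10 genes within each group. Its SE was also the largest of the uncalled genes. The mutant coefficients of variation were 13.4% for Cd36 and 2.69% for Gpihbp1, against 2.95% for Cd36 and 9.67% for Gpihbp1 in control libraries.

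None of the 3 transport protein genes passed the test, and the groups overlapped in each. Slc27a1, which encodes FATP1 and lies on chromosome 8 from 71568882 to 71587302 on the plus strand, had 12.1, 12.3 and 12.3 CPM in mutant replicates 1, 2 and 3, against 14.5, 14.7 and 11.0 CPM in control replicates 1, 2 and 3. Its log2 fold change was -0.13 (SE 0.15, edgeR adjusted p = 0.769). Slc27a3, for FATP3, lies on chromosome 3 from 90385239 to 90389938 on the minus strand and had 14.7, 18.6 and 20.6 CPM in mutant replicates 1, 2 and 3, against 17.4, 18.6 and 17.9 CPM in control replicates 1, 2 and 3. The means of this gene were nearly the same, with a log2 fold change of 0.00 (SE 0.14, edgeR adjusted p = 0.994). Slc27a4, for FATP4 and the most abundant of the 3, lies on chromosome 2 from 29802634 to 29817522 on the plus strand, with 36.4, 41.1 and 38.6 CPM in mutant replicates 1, 2 and 3, against 45.4, 36.7 and 37.3 CPM in control replicates 1, 2 and 3. Its log2 fold change was -0.04 (SE 0.11, edgeR adjusted p = 0.906). Another member of the family, Slc27a6 for FATP6, chosen after its values were seen, had 30.5, 37.5 and 25.6 CPM in mutant replicates 1, 2 and 3, against 37.3, 33.1 and 20.0 CPM in control replicates 1, 2 and 3, and was not called (edgeR adjusted p = 0.950).

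Levels of different genes were compared per kilobase of the longest principal protein-coding transcript in GENCODE M21. The 2 most abundant genes stood in a different order in the groups. In mutant libraries Gpihbp1 had 264.8 CPM per kb, ranging from 257 to 271, and Cd36 had 114, ranging from 97.7 to 128. In control libraries Cd36 came first with 219 CPM per kb, ranging from 212 to 223, and Gpihbp1 followed with 182, ranging from 172 to 203. Next in the mutant libraries were Fabp5 at 74.4, Lpl at 22.3, Fabp4 at 18.7, Tcf15 at 13.3, Slc27a4 at 9.54, Meox2 at 8.73, Slc27a3 at 7.97 and Slc27a1 at 4.39 CPM per kb. Lpl and Fabp4, Fabp4 and Tcf15, Slc27a4 and Meox2, and Meox2 and Slc27a3 overlapped there. In the control libraries the order went on with Fabp5 at 65.6, Lpl at 32.7, Fabp4 at 17.7, Slc27a4 at 9.81, Slc27a3 at 7.96, Tcf15 at 6.62, Meox2 at 6.41 and Slc27a1 at 4.79 CPM per kb. There Tcf15, Meox2 and Slc27a1 overlapped with their neighbours. These orders rest on 1 transcript per gene, since the isoforms in use are not in the counts.

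**Figure D4:**
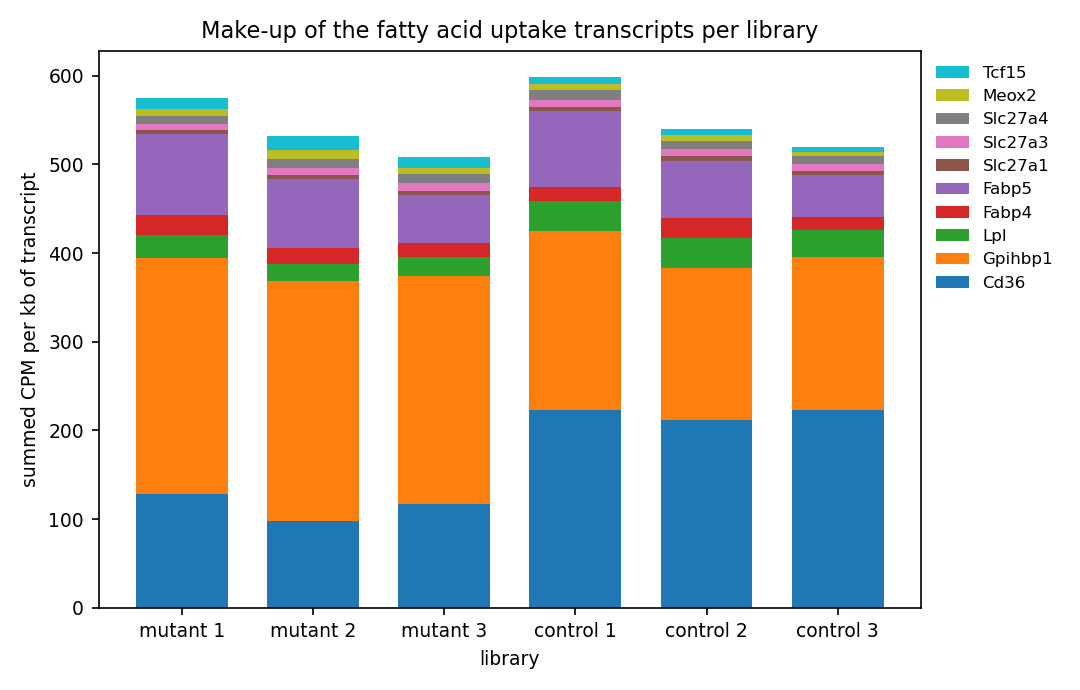
Summed CPM per kb of transcript (vertical axis) of the 10 genes as stacked bars, 1 bar per library, with mutant libraries left of control libraries and 1 colour per gene. Of the bar height, Cd36 takes 18.4% to 23.1% in mutant and 37.2% to 42.9% in control libraries, and Gpihbp1 takes 46.4% to 50.9% in mutant and 31.8% to 33.8% in control libraries.

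As a share of the summed CPM per kb of the 10 genes, Cd36 made up 21.2% ± 2.53 in mutant and 39.8% ± 2.89 in control libraries (SD, n = 3 each). Gpihbp1 made up 49.3% ± 2.52 in mutant and 32.9% ± 1.01 in control libraries. The sum itself was 575, 532 and 509 CPM per kb in mutant replicates 1, 2 and 3, against 598, 540.3 and 520.3 CPM per kb in control replicates 1, 2 and 3. These sums per kb overlapped between groups, while the shares of Cd36 and Gpihbp1 did not. Without division by transcript length, the 10 genes summed to 837 to 969 CPM in mutant and 1171 to 1263 CPM in control libraries. Those plain sums did not overlap.

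The wider pathway was read from 6 lists of further genes. For comparison, 3.27% of all tested genes were called, 1.93% higher and 1.34% lower. Among 28 regulators of endothelial fatty acid uptake, 3 were called higher and 2 lower, and the list median was a log2 fold change of 0.02, beside 0.00 for all tested genes. Apln, whose peptide acts on endothelial fatty acid transport in mice, had 669, 742 and 651 CPM in mutant replicates 1, 2 and 3, against 217, 188 and 229 CPM in control replicates 1, 2 and 3 (log2 fold change 1.70, SE 0.10, edgeR adjusted p = 5.35e-05). Epas1, the hypoxia factor HIF-2alpha, had 1242, 1196 and 1406 CPM in mutant replicates 1, 2 and 3, against 2299, 2204 and 2395 CPM in control replicates 1, 2 and 3 (log2 fold change -0.84, SE 0.09, edgeR adjusted p = 0.000794). Both were called in all 13 alternatives, and in both the groups did not overlap. Angpt2, an angiopoietin, averaged 39.3 ± 6.11 CPM in mutant and 24.8 ± 2.11 CPM in control libraries (SD, n = 3 each; log2 fold change 0.66, edgeR adjusted p = 0.0227, and up to 0.114 without 1 library). Flt1, a receptor for VEGF-B, averaged 448 ± 13.5 CPM in mutant and 590.1 ± 46.0 CPM in control libraries (SD, n = 3 each; log2 fold change -0.40, edgeR adjusted p = 0.0337). The Flt1 call ended with the sex of the pup as a covariate (adjusted p = 0.0591), with replicate numbers as a block (adjusted p = 0.064) and without 1 library in 5 of 6 cases. Meox1 was the third higher gene. Pparg, the lipid-sensing nuclear receptor, and Foxo1, a forkhead factor, chosen after their values were seen, were not called. Their log2 fold changes were -0.25 for Pparg (edgeR adjusted p = 0.637) and -0.33 for Foxo1 (adjusted p = 0.0891).

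Lipoprotein lipolysis and lipoprotein receptor genes had a list median of 0.08. Where 3.27% of all tested genes were called, 1 of these 18 tested genes was called higher and 0 lower. It was Scarb1, which encodes the HDL receptor SR-BI, with 242, 258 and 217 CPM in mutant replicates 1, 2 and 3, against 163, 171 and 174 CPM in control replicates 1, 2 and 3. The groups did not overlap, and the log2 fold change was 0.50 (SE 0.09, edgeR adjusted p = 0.0123). This call ended without mutant replicate 2 (adjusted p = 0.0617) and without control replicate 2 (adjusted p = 0.0511). Lmf2, a homologue of the lipase maturation factor, had a log2 fold change of -0.28 (edgeR adjusted p = 0.137). Angptl4, an inhibitor of lipoprotein lipase, chosen after its values were seen, had 0.09 (edgeR adjusted p = 0.905).

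Of 12 tested genes among other fatty acid carriers and acyl-CoA synthetases, 4 had an unadjusted p below 0.05, against 14% of all tested genes. By edgeR 0 were called, where 3.27% of all tested genes were called. With DESeq2 there was 1, Cavin1, a caveolar coat gene, with a log2 fold change of 0.36 (edgeR adjusted p = 0.0747, DESeq2 adjusted p = 0.0227). Dbi, an acyl-CoA binding protein gene, also had 0.36 (edgeR adjusted p = 0.106). Fatty acid oxidation had 0 of 21 called by edgeR and 0 by DESeq2, with 0 at an unadjusted p under 0.05 and a median of 0.10. Its genes with the smallest p were Acadl, a long-chain acyl-CoA dehydrogenase, with a log2 fold change of 0.26 (edgeR adjusted p = 0.371), and Eci2, an enoyl-CoA isomerase, with 0.18 (adjusted p = 0.379).

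In storage, 1 of 19 lipid droplet and triglyceride turnover genes was called, where 3.27% of all tested genes were called. The list median was -0.14. Hilpda, a hypoxia-inducible droplet protein that restrains triglyceride breakdown, had 30.0, 22.3 and 24.1 CPM in mutant replicates 1, 2 and 3, against 37.0, 43.4 and 39.3 CPM in control replicates 1, 2 and 3. It was lower in every mutant library, with a log2 fold change of -0.65 (SE 0.13, edgeR adjusted p = 0.024, and up to 0.125 without 1 library). Lipe, the hormone-sensitive lipase gene, had 36.5, 32.6 and 33.5 CPM in mutant replicates 1, 2 and 3, against 44.1, 68.9 and 48.8 CPM in control replicates 1, 2 and 3. It was not called by edgeR with the filter and all 6 libraries (log2 fold change -0.65, adjusted p = 0.0632). Lipe was called by edgeR with no filter (adjusted p = 0.0206) or without control replicate 1 (adjusted p = 0.0184), and by DESeq2 (adjusted p = 0.00355). Fatty acid synthesis and desaturation had 0 of 15 called by edgeR and 0 by DESeq2, with a median of -0.06. At an unadjusted p under 0.05 there were 6, against 14% of all tested genes. Elovl4, an elongase of very long chains, had a log2 fold change of 1.68 at levels of 0.753 to 2.49 CPM in mutant and 0.427 to 0.70 CPM in control libraries (edgeR adjusted p = 0.0921). Its edgeR adjusted p was 0.0447 with no filter, 0.0379 with replicate numbers as a block and 0.0309 without mutant replicate 2. Elovl1, another elongase, had -0.34 (edgeR adjusted p = 0.242).

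**Figure D5:**
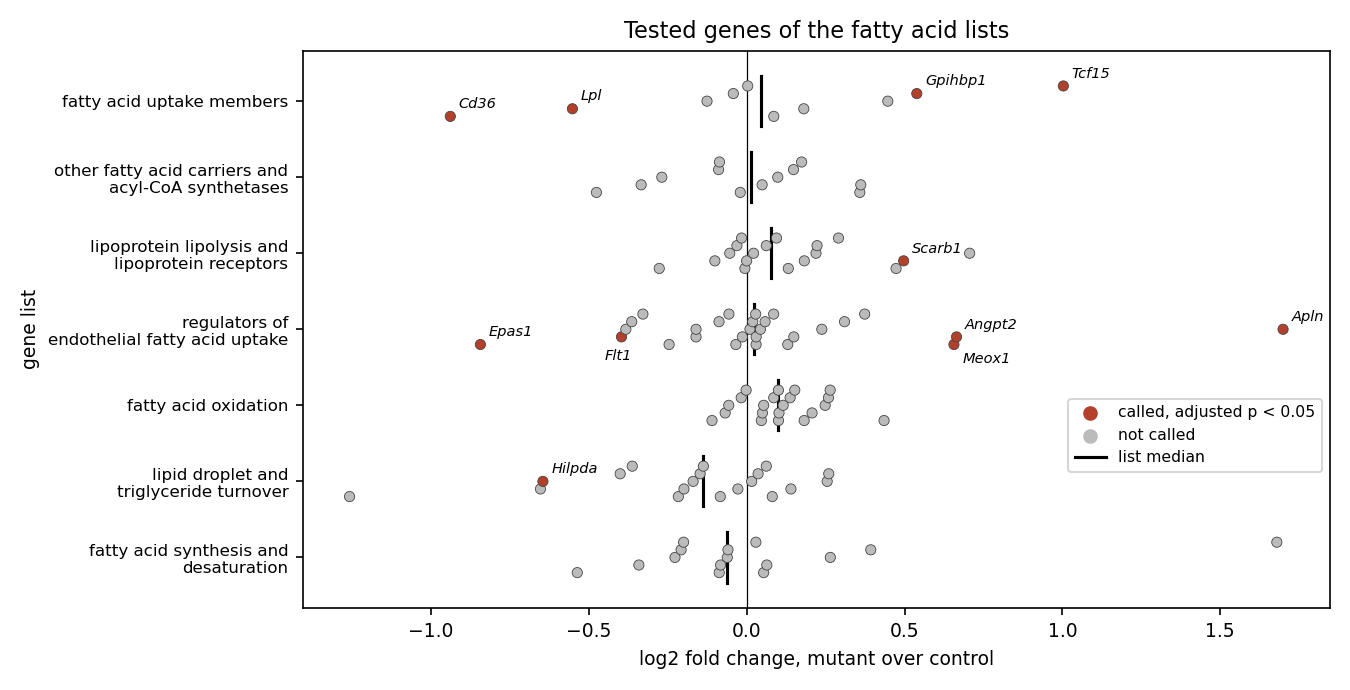
Log2 fold change, mutant over control, of each tested gene in the fatty acid lists, by list, with filled red points for called genes, grey points for uncalled ones and a black bar at the list median. Called genes stand out in the top list and among the regulators, and no gene is called in the lists of other carriers, oxidation and synthesis.

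The genes whose log2 CPM followed that of Cd36 most closely over the 6 libraries, among 6671 genes averaging 5 or more on the log2 CPM scale, were Glis2 (Pearson r = 0.995), Selenoi (0.993) and Smad4 (0.992). Nearest to Gpihbp1 were Ufc1 (0.995), Ndufs8 (0.992) and Lsm14b (0.990). These coefficients describe 6 points that fall into their 2 groups and share libraries and depth. Of these, Glis2 was called lower, with a mean of 69.4 ± 8.02 CPM in mutant and 117 ± 7.67 CPM in control libraries (SD, n = 3 each; edgeR adjusted p = 0.00377), while Selenoi, Ufc1, Ndufs8 and Lsm14b were not called.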

How the data were processed

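The authors deposited raw counts per gene symbol and library, as whole numbers, both per library and as a combined table, and 0 values differed between the 2 forms. Per the submitters' processing notes the build was mm10, the same assembly as GRCm38, and DESeq2 is named there without a role. Aligner, counter and strand setting were not given in the sources used here, so overlapping genes may share reads. Rows without a gene (reads with no feature, 53.9% to 58.2% of each library, and ambiguous reads, 0.288% to 0.366%) were left out.

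The counts went into edgeR 4.0.16 under R 4.3.3. The filter filterByExpr kept 14934 genes, libraries were scaled by TMM, and mutant and control were compared with the robust two-sided quasi-likelihood F test on all 6 libraries, without covariates. Benjamini-Hochberg adjustment ran over all tested genes, and calls needed an adjusted p below 0.05. CPM use TMM-scaled library sizes, and the SE is that of the log2 fold change. The alternatives were no filter, DESeq2 or upper-quartile size factors in edgeR, DESeq2 1.42.0, limma-voom in limma 3.58.1, replicate number as a block, sex as a covariate and leaving out each library. Sex was read from the counts of Xist and Y-linked genes, which gave 2 female libraries in each group. Any 2 replicates of a group differed beyond sampling noise (chi-square over its degrees of freedom, 12.3 or more). The functions were tested on simulated data with known folds.

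The 10 genes, the lists and the naming rule were chosen with earlier results of these data known. The rule took the 10 genes, Smad4, the called genes of each pathway list (or the 2 lowest in p, if the list had under 2), the 3 most abundant genes of each marker list, and the 3 genes with the highest correlation with Cd36 and with Gpihbp1. Coordinates and transcript lengths are from GENCODE M21, matched by symbol.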

Additional observations from a re-analysis of the deposited data

How the results depend on the processing

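All 4 calls among the 10 genes held with no filter, with DESeq2 or upper-quartile size factors, with DESeq2, with limma-voom, with sex as a covariate and with replicate number as a block. Leaving out 1 library left 1 to 4 of them, and without mutant replicate 2 or control replicate 2 the 1 was Cd36. Over all genes 488 were called, against 755 with DESeq2 and 211 to 428 with 1 library left out. The lowest counts were 211 (mutant replicate 2 left out), 293 (control replicate 2) and 325 (control replicate 3). Same-numbered libraries correlated at -0.0118, 0.0158 and 0.184 in their deviations from the group means, and different-numbered ones at -0.165 to 0.131. With 3 libraries a group, these values cannot settle whether the numbers pair the samples. The replicate block gave 466 called genes and 4 of the 10.

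Signs of uncalled genes changed near 0. Slc27a3 had a log2 fold change of -0.0099 with upper-quartile factors, -0.0042 with limma-voom, -0.0099 with the replicate block and -0.0092 with sex as a covariate, and -0.11 to 0.13 with 1 library left out. With 1 library left out Fabp4 ran from -0.062 to 0.30, Fabp5 from -0.0046 to 0.41 and Slc27a4 from -0.098 to 0.065.

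Called genes in the lists changed as follows. Other carriers had 0, and 1 with DESeq2. Lipolysis genes had 1, and 2 with the replicate block. Regulators had 5, with 7 under DESeq2 and 3 with sex as a covariate. Lipid droplet genes had 1, and 2 with no filter or DESeq2. Synthesis genes had 0, and 1 with no filter or the replicate block. With 1 library left out the counts ran from 0 to 1 for other carriers, 0 to 1 for lipolysis, 2 to 6 for regulators, 0 to 1 for oxidation, 0 to 2 for lipid droplets and 0 to 1 for synthesis. The log2 ratio of Gpihbp1 to Cd36 differed by 1.36 to 1.57 with 1 library left out. Scaling cancels in that ratio, so other settings were not run for it. The causes of these changes were not tested. With 3 libraries a group, leaving out 1 library ended some calls. Tcf15, with 91 to 249 counts per library, lost its call without mutant replicate 2 or control replicate 2. Gpihbp1, with 1993 to 4346 counts per library, lost its call in the same cases. The part of counting error in these losses was not tested.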

Other observations

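Genes near the 10 fatty acid uptake genes on the chromosome were read as well, a look chosen after their values were seen. Within 500 kb lay 179 other protein-coding genes, of which 130 were tested and 5 called, 2 higher and 3 lower, that is 3.85% against 3.27% of all tested genes. Cd36 had 2 tested neighbours, and both were called. Sema3c, a secreted semaphorin, lies 51.4 kb from Cd36 and had 147, 137 and 172 CPM in mutant replicates 1, 2 and 3, against 493, 463 and 485 CPM in control replicates 1, 2 and 3. Like Cd36 it was lower in every mutant library, with a log2 fold change of -1.66 (SE 0.10, edgeR adjusted p = 5.35e-05). Sema3c is also 1 of the 15 general capillary markers, of which 6 were called lower and 2 higher. Gnai1, an inhibitory G protein subunit, lies 376 kb away and had 96.2, 85.9 and 83.6 CPM in mutant replicates 1, 2 and 3, against 57.7, 49.2 and 58.4 CPM in control replicates 1, 2 and 3. It moved the other way, with a log2 fold change of 0.68 (SE 0.10, edgeR adjusted p = 0.00528). Both calls held in all 13 alternatives.

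The other called neighbours were Bst2, an interferon-induced gene 31.4 kb from Slc27a1 with a log2 fold change of 1.46 (edgeR adjusted p = 0.0111), Npr1, a natriuretic peptide receptor gene 60.7 kb from Slc27a3 with -0.36 (adjusted p = 0.0483), and Zfp704, 402 kb from Fabp5 with -0.40 (adjusted p = 0.0319). Slc27a1, Slc27a3 and Fabp5 themselves were not called. Of the 13 alternatives, the call was lost in 3 for Bst2, in 8 for Npr1 and in 6 for Zfp704.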
